A study of Mus musculus with 6 samples.

Results

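The genes of the hyaluronan matrix described here were 3 hyaluronan and proteoglycan link proteins (Hapln1, Hapln3, Hapln4), 4 lecticans (Vcan, Bcan, Ncan, Acan) and 2 hyaluronan synthases (Has2, Has3). They were found by symbol and make up 9 of the 52459 symbols in the count table, and all 9 passed the filter on low counts. Bulk RNA sequencing was done on whole brain of C57BL/6 embryos at E14.5, in 3 libraries labelled Mfsd7c-/- knock out and 3 labelled wild type, with no other allele or agent in the labels. The sources used here do not say how the allele was made or whether embryos shared a litter, so the errors measure only the spread between these 6 samples. The 9 genes were chosen by their family, and with the fold changes of these same libraries known, so their differences between genotypes are a description with no test.

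Hyaluronan is a long unsulfated sugar polymer that synthases in the cell membrane extrude into the extracellular space. Lecticans are chondroitin sulfate proteoglycans that bind it through their N-terminal region, and link proteins hold both together as a stable aggregate. In the embryonic brain this matrix fills the space around progenitors, migrating neurons and vessels, and after birth it forms the perineuronal nets that surround some neurons.

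The link protein and lectican genes lie in pairs in the GRCm38 genome. In the GENCODE M21 annotation Hapln1 (chr13:89539796-89611652, plus strand) was 43.7 kb from Vcan (chr13:89655312-89742509, minus strand). Hapln4 (chr8:70083457-70090862, plus strand) was 2.2 kb from Ncan (chr8:70093085-70120873, minus strand). Hapln3 (chr7:79115102-79131018, minus strand) and Acan (chr7:79053483-79115099, plus strand) were separated by 2 bases at their 3′ ends, and Bcan (chr3:87987531-88000230, minus strand) lies 21.5 kb from Hapln2, the remaining link protein gene. The synthase genes stand apart from these pairs, Has2 at chr15:56665627-56694539 on the minus strand and Has3 at chr8:106870242-106884566 on the plus strand.

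The members of a family resemble each other, so the coding sequences were compared for stretches that a read could share. Aligned bases of the link protein coding sequences, Hapln2 included, were 58.1% to 66.3% identical, and those of the synthases, Has1 included, 62.5% to 68.8%. The longest run of identical bases between a pair was 17 bases among link proteins (Hapln2 with Hapln1 and with Hapln4), 21 among lecticans and 23 among synthases. A longest exact run of each family is shown. Identity over the length of a read was not measured, and untranslated regions were not compared. Each is given in capitals with 20 bases of its own coding sequence on either side, read 5′ to 3′ along the transcript, from GENCODE M21. The Hapln1 stretch lies in exon 4 (chr13:89605303-89605359), and each of the others crosses an exon boundary.
Hapln1, exon 4: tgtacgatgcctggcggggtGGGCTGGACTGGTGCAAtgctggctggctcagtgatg
Hapln2, exons 5 and 6: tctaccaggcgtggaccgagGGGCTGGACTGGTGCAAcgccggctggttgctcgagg
Vcan, exons 12 and 13: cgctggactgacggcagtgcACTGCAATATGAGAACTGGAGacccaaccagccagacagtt
Ncan, exons 12 and 13: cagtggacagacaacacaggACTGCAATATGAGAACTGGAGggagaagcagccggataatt
Has2, exons 3 and 4: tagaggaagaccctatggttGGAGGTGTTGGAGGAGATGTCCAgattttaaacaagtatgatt
Has3, exons 3 and 4: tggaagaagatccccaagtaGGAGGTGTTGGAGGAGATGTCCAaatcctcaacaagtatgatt
Other genes overlap some of these loci: Has2os lies opposite Has2 and shares 182 exon bases with it, and Chtf8 lies opposite Has3 and shares 352. Has2os had 15 to 24 counts per library, and Chtf8 6242 to 7651. The strand setting of the counting was not stated, so reads from these shared bases, or from the abutting ends of Hapln3 and Acan, cannot be assigned to a strand.

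The libraries held 43784619 to 50549673 counts. Mfsd7c, the targeted transporter gene, had 119 to 130 counts in the knockout libraries and 206 to 291 in the wild-type libraries. Neuron markers (8 genes) summed to 6109 to 7189 CPM (counts scaled to TMM-adjusted library size) and radial glia markers (8 genes) to 1974 to 2056 CPM over the libraries. Epidermal genes (9 genes, keratins among them) were high in replicate 1 of both genotypes, with sums of 532 CPM (knockout) and 455 CPM (wild-type), against 26.3 to 99.4 CPM in the other 4 libraries. Caudal Hox genes (16 genes) were high in wild-type replicates 2 and 3, with sums of 168 and 43.7 CPM, against 0.591 to 4.40 CPM in the others. Results are therefore also given without those libraries where that moves them.

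Hapln1, which encodes the link protein best known from cartilage and from perineuronal nets, differed most between the groups. It had 325, 403 and 467 counts in knockout replicates 1, 2 and 3, and 101, 45 and 69 counts in wild-type replicates 1, 2 and 3. On the CPM scale these were 7.53, 7.94 and 9.75 in knockout and 2.28, 0.895 and 1.38 in wild-type brains. The lowest knockout value was thus above the highest wild-type value, and wild-type replicate 1 was the highest of its group. The means were 8.41 ± 1.18 CPM (SD, n = 3) and 1.52 ± 0.702 CPM (SD, n = 3). That is a fold change of 5.56, or 2.48 on the log2 scale (SE 0.303, edgeR fit over all genes). Counting error was smaller than the gap, since the exact 95% Poisson interval reached 123 counts for wild-type replicate 1 and began at 291 counts for knockout replicate 1. These intervals cover counting error only. Hapln1 was chosen with this difference known, so they describe it and do not test it. In bulk tissue, more cells of a type and more RNA per cell cannot be told apart.

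**Figure D1:**
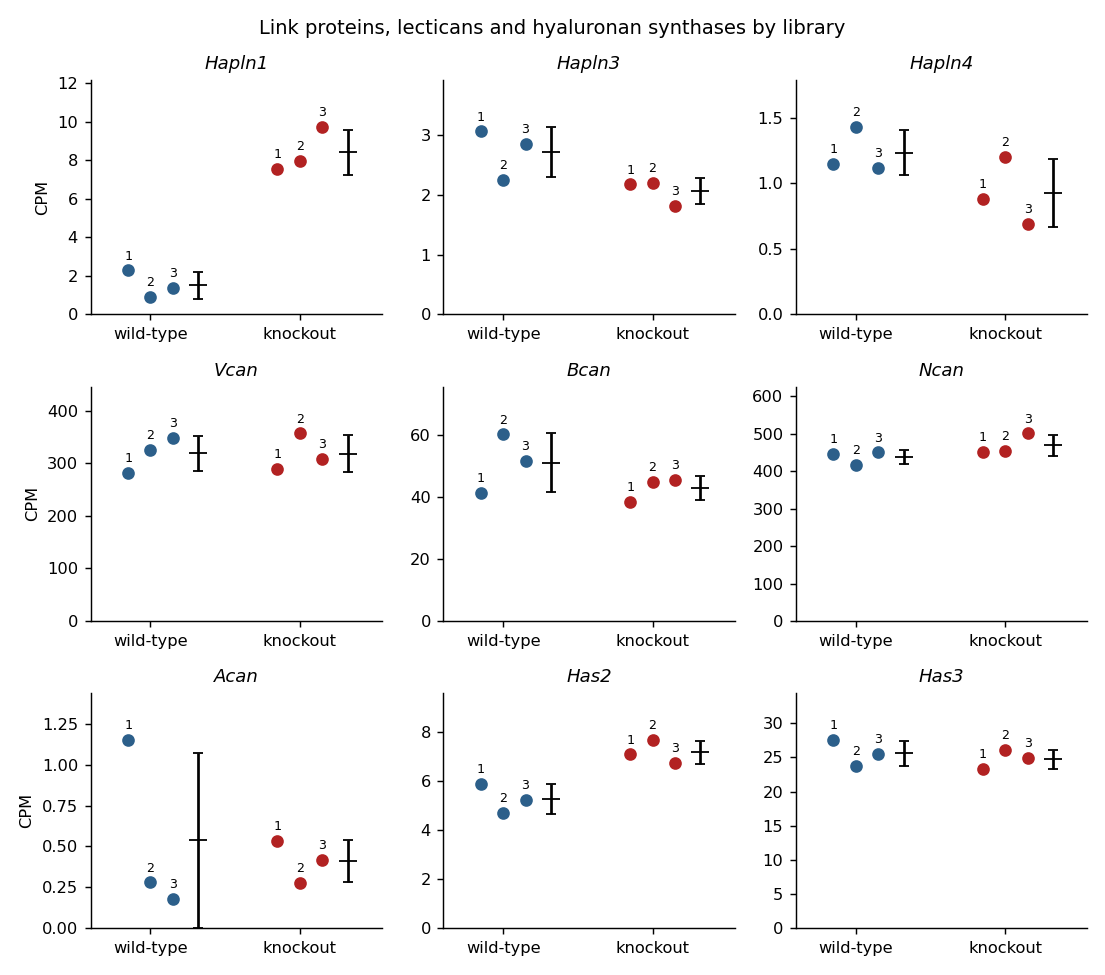
Each panel plots 1 gene in CPM, starting at 0, with 1 point per library (replicate numbers above the points) and the mean ± SD beside them. Hapln1 lies at 7.53 to 9.75 CPM in knockout and 0.895 to 2.28 CPM in wild-type libraries, whereas the groups of Vcan, Bcan, Acan, Hapln4 and Has3 overlap.

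The other link proteins did not share that pattern. Hapln3, a link protein also made outside the brain, had values in replicate order of 2.18, 2.21 and 1.82 CPM for knockout and 3.07, 2.25 and 2.85 CPM for wild-type brains. The groups parted by a narrow margin, 2.21 against 2.25 CPM, with knockout lower, and the log2 fold change was -0.40 (SE 0.190). Hapln4, a link protein of perineuronal nets, was at 0.881, 1.203 and 0.689 CPM in knockout and 1.15, 1.43 and 1.117 CPM in wild-type brains. Its groups overlapped, at 33 to 72 counts per library, and its log2 fold change was -0.41 (SE 0.266). Hapln2, a link protein of the nodes of Ranvier in mature myelinated tracts and not among the 9, had 10 to 22 counts per library in overlapping groups.

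Levels of different genes were set side by side as RPKM, which is CPM divided by the union exon length in kilobases. Among the 4 link protein genes Hapln1 made up 56.5%, 55.6% and 67.9% of the summed RPKM in knockout replicates 1, 2 and 3. In wild-type replicates 1, 2 and 3 its share was 23.2%, 12.2% and 15.4%, and Hapln3 held 51.6% to 53.6%. The leading link protein transcript per length was therefore Hapln3 in each wild-type library and Hapln1 in each knockout library. The summed level of the family was 2.37 ± 0.0979 RPKM (SD, n = 3) in knockout and 1.47 ± 0.216 RPKM (SD, n = 3) in wild-type brains.

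The lecticans are the proteoglycans that the link proteins hold on hyaluronan, and their transcripts were far more abundant. Ncan encodes the brain proteoglycan neurocan. In replicate order it had 452, 454 and 501 CPM in knockout brains, and wild-type brains had 447, 416 and 450.1 CPM. Its groups did not overlap, but knockout replicate 1 and wild-type replicate 3 were nearly level, and the log2 fold change was 0.10 (SE 0.0686, 95% interval -0.058 to 0.25). Vcan encodes versican, a large lectican of embryonic matrix, and is the chromosomal neighbour of Hapln1. It was at 289, 357 and 308 CPM in knockout and 282, 325 and 349 CPM in wild-type brains. The groups overlapped throughout and the log2 fold change was -0.0044 (SE 0.102), with a 95% interval of -0.24 to 0.23.

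Vcan varied within each genotype, to a similar extent in both. The highest library was 1.24 times the lowest in knockout and 1.23 times in wild-type brains, against medians of 1.14 and 1.17 over the 15481 tested genes with a mean of at least 1 CPM. The 3 libraries with the least Vcan were knockout replicates 1 and 3 and wild-type replicate 1. The embryonic genes Hbb-bh1 and Hbb-y gave 2.80%, 5.03% and 4.49% of the counts summed with Hbb-bs and Hbb-bt there, against 23.3% to 26.5% in the other libraries. Whether that moves with Vcan was not tested.

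Bcan encodes brevican, a lectican of glia and of perineuronal nets. In replicate order, knockout brains had 38.6, 44.9 and 45.6 CPM and wild-type brains had 41.3, 60.3 and 51.7 CPM. The groups overlapped through wild-type replicate 1, and the log2 fold change was -0.25 (SE 0.132, 95% interval -0.55 to 0.054). Without wild-type replicate 1 the value was -0.38 (SE 0.0914), and without replicate 1 of both genotypes -0.31 (SE 0.0812). Left with wild-type replicate 1 alone as the wild-type library, it was 0.063 (SE 0.113).

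Acan, which encodes aggrecan, the main proteoglycan of cartilage and a component of perineuronal nets, was scarce in all libraries. It had 23, 14 and 20 counts in knockout and 51, 14 and 9 counts in wild-type replicates 1, 2 and 3. Wild-type replicate 1 stood apart with 1.15 CPM, and its exact 95% Poisson interval of 38.0 to 67.1 counts lay above those of the other wild-type libraries, whose upper bounds were 23.5 and 17.1 counts. The 13 cartilage genes summed to 255 CPM there, the lowest of the wild-type libraries, and Col2a1, the main cartilage collagen, was at 90.0 CPM, the lowest of all 6. Within that list Epyc, Cnmd and Ucma went the other way and were highest there of all 6 libraries. Epyc was at 2.10 CPM against 0.219 to 0.670 CPM elsewhere. Cnmd was at 1.53 against 1.06 to 1.45 CPM, and Ucma at 0.473 against 0.232 to 0.378 CPM. Col9a1, Matn3, Comp and Snorc were highest there among the wild-type libraries only. Col1a1, a collagen of connective tissue, was at 529 CPM in wild-type replicate 1 against 149 to 302 CPM. The part of such tissue in the Acan value was not tested. The log2 fold change of Acan was -0.38 (SE 0.655), and it was 0.82 (SE 0.464) without wild-type replicate 1 and 0.047 (SE 0.631) with limma-voom, so these libraries give no direction for Acan.

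Summed per length, the 4 lecticans were at 97.8 ± 5.05 RPKM (SD, n = 3) in knockout and 95.5 ± 3.72 RPKM (SD, n = 3) in wild-type brains. Ncan took 66.7% ± 2.45 of that sum in knockout and 63.7% ± 3.48 in wild-type brains (SD, n = 3), and Vcan 22.5% ± 2.18 and 23.0% ± 1.60 (SD, n = 3). Bcan took 10.8% ± 0.475 in knockout and 13.1% ± 2.28 in wild-type brains (SD, n = 3). The shares of these lecticans thus differed by about the spread between wild-type libraries or less. The shift in the link protein shares restates the difference that Hapln1 was chosen for, so the families are not contrasted.

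Among the synthases, Has2 makes the hyaluronan that embryos need for heart and vessel formation. In replicate order, knockout brains had 7.07, 7.65 and 6.74 CPM and wild-type brains 5.88, 4.67 and 5.23 CPM. Each knockout value was above each wild-type value. The means were 7.15 ± 0.460 and 5.26 ± 0.606 CPM (SD, n = 3). On the log2 scale the difference was 0.44 (SE 0.132, 95% interval 0.14 to 0.74). Without wild-type replicates 2 and 3 it was 0.29 (SE 0.188). Has3, the most abundant synthase here, was at 23.3, 26.1 and 24.9 CPM in knockout and 27.5, 23.8 and 25.5 CPM in wild-type brains. Its groups overlapped, and the log2 fold change was -0.048 (SE 0.0816, 95% interval -0.23 to 0.14). Has1, which is not among the 9, had 26 to 72 counts per library in overlapping groups. Of the summed synthase RPKM, Has2 took 28.3% to 30.4% in knockout and 21.5% to 23.8% in wild-type libraries.

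By length-scaled level, the order in wild-type brains was Ncan, Vcan, Bcan, Has3, Has2, Hapln3, Hapln4, Hapln1 and Acan. The means ran from 60.9 ± 2.61 RPKM for Ncan to 0.0718 ± 0.0715 RPKM for Acan (SD, n = 3). Neighbours in this order did not overlap except Hapln4 with Hapln1 and Hapln1 with Acan. In knockout brains Hapln1, at 1.42 ± 0.199 RPKM (SD, n = 3), stood between Has2 at 1.69 ± 0.109 RPKM and Hapln3 at 0.588 ± 0.0622 RPKM (SD, n = 3), and its libraries overlapped those of Has2. All the other genes kept their relative order between the genotypes. Even in knockout brains Hapln1 was therefore well below its partner Vcan, which was at 22.0 ± 2.42 RPKM (SD, n = 3).

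**Figure D2:**
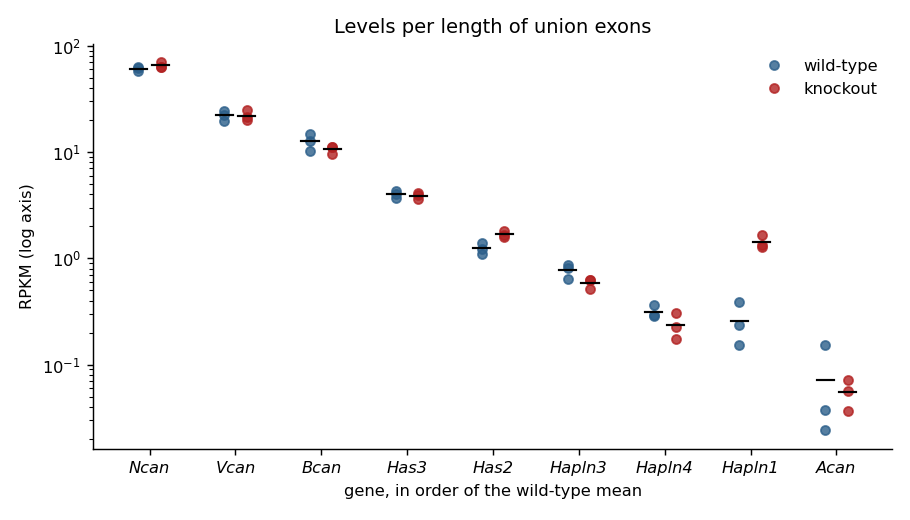
RPKM on a log axis for the 9 genes, ordered by the wild-type mean, with 1 point per library and a bar at each group's mean. Ncan, Vcan and Bcan lead in both genotypes, and Hapln1 moves from 0.257 to 1.42 RPKM past Hapln3 and Hapln4 in the order.

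In the edgeR fit over all genes, 1 of the 9 genes was past a false discovery rate (FDR) of 0.05 as higher in knockout, Hapln1, and 0 as lower. Over all 19565 genes tested, 0.624% were called higher and 0.0358% lower. Since the 9 were proposed with this contrast known, nothing is read from that count. Values did not overlap between the groups for 3 genes that were higher in knockout (Hapln1, Ncan and Has2) and for 1 that was lower (Hapln3). Over all genes tested, 7.84% did not overlap with knockout higher and 6.58% with knockout lower. The median log2 fold change of the 9 was -0.048, against -0.0099 over all genes tested. The authors' deposited table likewise put 1 of the 9 past an adjusted p of 0.05, where 1.5% of its genes were past it, with a log2 fold change of 2.48 (SE 0.270) for Hapln1, on the same libraries.

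Under the alternative fits the share of all genes called higher was 0.618% with DESeq2 size factors, 0.558% with no low-count filter, 1.27% in the DESeq2 Wald test, 0.613% with limma-voom and 1.08% with the replicate number as a block. With knockout replicate 1, 2 or 3 left out it was 0.24%, 0.535% and 0.189%, and with wild-type replicate 1, 2 or 3 left out 1.16%, 0.165% and 0.2%. It was 1.34% without replicate 1 of both genotypes and 0.0774% without wild-type replicates 2 and 3.

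The Hapln1 difference was seen in each of the alternative fits, but its place past the FDR was not. The log2 fold change was 2.36 (SE 0.352) without knockout replicate 3 and 2.42 (SE 0.374) without wild-type replicate 3, and in these fits 0 of the 9 genes were past the FDR. It was 2.96 (SE 0.217) without replicate 1 of both genotypes, the libraries with epidermal keratins. It was 1.89 (SE 0.240) without wild-type replicates 2 and 3, the libraries with Hox genes, which leaves 1 wild-type library that is assumed to vary like the others.

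**Figure D3:**
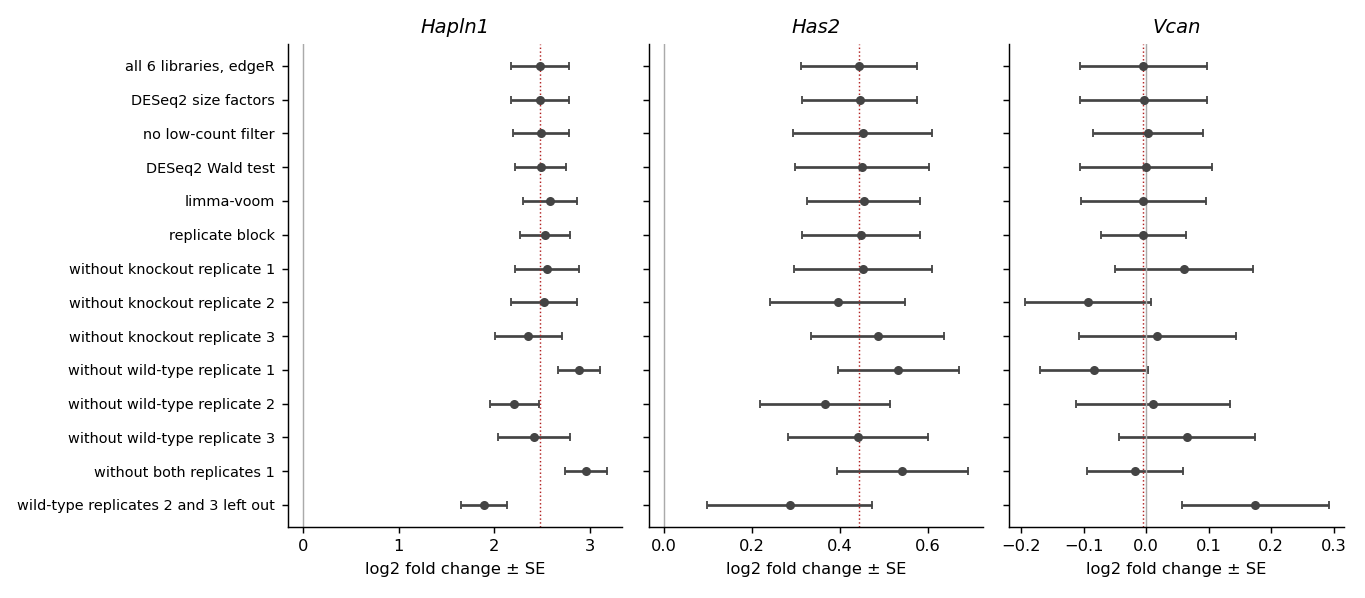
Log2 fold change ± SE of Hapln1, Has2 and Vcan under each fit, on a separate axis per gene, with the value from all 6 libraries as a dotted line and 0 as a grey line. Hapln1 runs from 1.89 to 2.96 and stays above 0, Has2 runs from 0.29 to 0.54, and Vcan lies on either side of 0.

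Hapln1 and Acan are abundant in cartilage, so cartilage genes were read in the same libraries. The 13 cartilage genes summed to 209 to 314 CPM in knockout and 255 to 344 CPM in wild-type brains, in overlapping groups, and 0 of the 10 tested were past the FDR in either direction (edgeR; 2, Col11a1 and Col11a2, had an unadjusted p under 0.05 and negative log2 values). Col2a1 was at 90.0 to 158 CPM over the libraries, with a knockout over wild-type difference of -0.056 on the log2 scale (SE 0.268, edgeR adjusted p = 0.976). Matn1, a matrilin of cartilage, was at most 0.279 CPM in any library. The part of cartilage in the Hapln1 level was not tested. In the same libraries the 8 endothelial markers summed to 319 to 350.2 CPM in knockout and 260.5 to 315.5 CPM in wild-type brains, with Pecam1 and Emcn past the FDR as higher and Cldn5 as lower. Their part in the Hapln1 level was not tested. Oligodendrocyte precursor markers (6 genes) summed to 120 to 140.4 CPM in knockout and 119 to 156 CPM in wild-type brains, and those of meninges (10 genes) to 972 to 1200 and 839 to 1666 CPM, both in overlapping groups. Single genes differed from these sums. Sox10 (log2 fold change -0.64, without overlap) and Gpr17 (-0.49) of the first list and Crabp2 (-0.33) of the second had an unadjusted p under 0.05 (edgeR). They were not past the FDR. The largest positive values in the lists were 0.18 (Lhfpl3) and 0.31 (Aldh1a2).

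The genes beside Hapln1 on chromosome 13 did not share its difference. The nearest tested protein-coding genes were Edil3 and Cox7c on one side and Vcan and Xrcc4 on the other. Edil3, an integrin-binding matrix protein gene 216.6 kb away, had a log2 fold change (knockout over wild-type, here called log2 value) of 0.053 (SE 0.0838, edgeR adjusted p = 0.912). Xrcc4, a DNA repair gene 162.4 kb away, had 0.0092 (SE 0.121, edgeR adjusted p = 0.991). Cox7c, a respiratory chain subunit gene 3493 kb away, had -0.095 (SE 0.0655, edgeR adjusted p = 0.766). These protein-coding neighbours were not past the FDR, where 0.659% of all genes tested were. Hapln1 was chosen with its difference known, so its own call is not set against theirs. A shared cause at the locus was not tested.

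The 5 genes whose profile over the 6 libraries was most like that of Hapln1 were taken from 13663 named genes with a mean of at least 1 CPM. Likeness was the root mean square difference between log2 CPM profiles, each centred on its own mean, so 0 would be an identical profile. Tfpi2, a serine protease inhibitor of the extracellular matrix, was closest at 0.235, followed by Esm1, an endothelial proteoglycan, at 0.297. Stc2, a secreted glycoprotein, came next at 0.304, then Gimap4, a GTPase of lymphocytes and endothelium, at 0.347 and Angpt2, a vessel-destabilising ligand, at 0.357. Their log2 fold changes ran from 2.04 (SE 0.208) for Gimap4 to 2.79 (SE 0.336) for Tfpi2, and, like Hapln1, they did not overlap between the groups. The measure follows the genotype difference that Hapln1 was chosen for and so adds no evidence for it.

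The rest of the pathway was read from 70 other genes listed by role, of which 64 were tested. In the edgeR test 0 of the 64 were past an FDR of 0.05 in either direction, where 0.659% of all genes were. Of the 64, 8 had an unadjusted p under 0.05, 7 of them with a positive and 1 with a negative log2 fold change, against 8.09% of all genes. Limma-voom called 0 and DESeq2 called 1, Adamts9. The median log2 fold change was 0.075, against -0.0099 over all genes tested. Of the 64, values did not overlap for 9 with knockout higher and for 1 with knockout lower, where 7.84% and 6.58% of all genes did not.

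**Figure D4:**
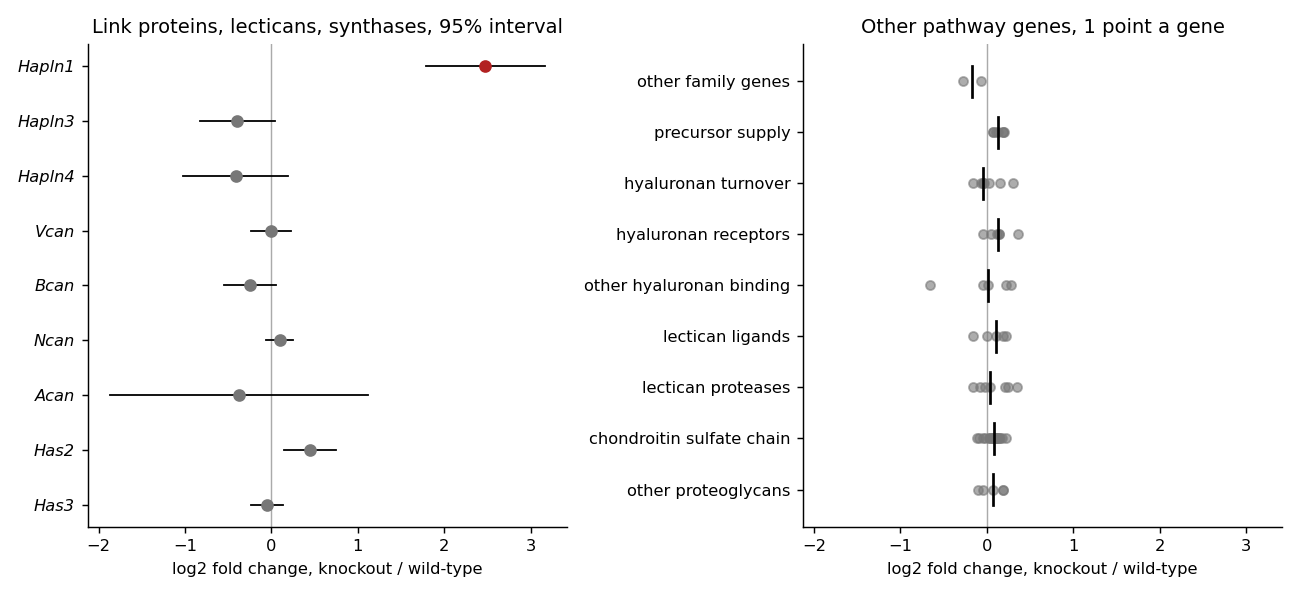
The left panel gives the log2 fold change (knockout over wild-type) of the 9 genes with its 95% interval from the edgeR fit, in red where past an FDR of 0.05. The right panel gives 1 point for each of the 64 other pathway genes by role, with a bar at the median, on the same axis: they lie between -0.65 and 0.36, while Hapln1 is at 2.48.

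The enzymes that supply the sugar nucleotides for hyaluronan had small positive differences, 0.071 to 0.20 on the log2 scale in all 7, and 0 were past the FDR. Values were above 0 for 44 of the 64 other pathway genes, these included, and for 9267 of all 19565 genes tested. The 7 were measured in the same libraries, and a joint shift was not tested. Without wild-type replicate 3, 6 of the 7 were above 0. With wild-type replicates 2 and 3 left out, 5 were, with a median of 0.068. Ugdh, which makes UDP-glucuronic acid, was at 58.1, 59.0 and 60.7 CPM in knockout brains and 53.0, 53.3 and 55.8 CPM in wild-type brains, in replicate order, without overlap (log2 fold change 0.13, SE 0.0557, edgeR adjusted p = 0.586). Gfpt1, which starts hexosamine synthesis, had a log2 value of 0.18 (SE 0.0695, edgeR adjusted p = 0.533).

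Hyaluronan turnover genes centred near 0, with a median log2 fold change of -0.038 over the 8 tested. Cemip2, listed in the table as Tmem2 and encoding a cell-surface protein linked to hyaluronan breakdown, was the most abundant at 114 ± 7.70 CPM in knockout and 117 ± 11.4 CPM in wild-type brains (SD, n = 3). Its log2 fold change was -0.040 (SE 0.0817, edgeR adjusted p = 0.937). Among the receptors, Lyve1, a receptor of lymphatic endothelium and some macrophages, was at 11.7, 14.5 and 11.4 CPM in knockout brains and 10.3, 9.69 and 9.34 CPM in wild-type brains, in replicate order. These groups did not overlap, but the log2 fold change of 0.36 (SE 0.119) did not pass the test (edgeR adjusted p = 0.445). Cd44, the most widely expressed hyaluronan receptor, was at 9.85 and 10.2 CPM in replicate 1 of knockout and wild-type, the libraries with epidermal keratins, and at 4.71 to 7.10 CPM in the other 4. Its difference between genotypes was small against that spread (log2 fold change 0.15, SE 0.331, edgeR adjusted p = 0.946). Stab1, a scavenger receptor of macrophages, was the most abundant receptor gene, with a log2 value of 0.14 (SE 0.123, edgeR adjusted p = 0.823). Of the other hyaluronan-binding genes, Habp4 was the most abundant, with a log2 value of 0.012 (SE 0.0895, edgeR adjusted p = 0.985).

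Partners and processors of the lecticans were likewise not past the FDR. Tnc, encoding tenascin-C, a glycoprotein that binds lecticans, was at 221, 216 and 267 CPM in knockout brains and 201, 203 and 200.1 CPM in wild-type brains, in replicate order. The groups did not overlap, and the log2 fold change was 0.22 (SE 0.0839, edgeR adjusted p = 0.533). Adamts9, a protease that cleaves versican and aggrecan, was at 21.9, 22.6 and 22.1 CPM in knockout and 18.6, 16.1 and 17.5 CPM in wild-type brains. It had the lowest p-value of the 64 genes, with a log2 value of 0.35 (SE 0.0798, edgeR adjusted p = 0.161), and is named here after its values were seen. It passed in the DESeq2 Wald test (adjusted p = 0.0225), without wild-type replicate 1 (edgeR adjusted p = 0.0400) and without replicate 1 of both genotypes (edgeR adjusted p = 0.0392). Adamts1, another versican-cleaving protease and the most abundant of this group, had 0.21 (SE 0.0971, edgeR adjusted p = 0.632).

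The 19 tested enzymes of chondroitin sulfate chain assembly, which build the sugar chains of lecticans, lay between -0.12 and 0.22 on the log2 scale, with a median of 0.086. Fam20b, a xylose kinase of the linker region, was the most abundant, with a log2 value of 0.033 (SE 0.0800, edgeR adjusted p = 0.949). Of the other chondroitin sulfate proteoglycans, Ptprz1, a receptor phosphatase of glial progenitors, was at 420.2, 391.7 and 438 CPM in knockout brains and 341, 378 and 380.2 CPM in wild-type brains, in replicate order. Its groups did not overlap, and the log2 fold change was 0.18 (SE 0.0716, edgeR adjusted p = 0.539).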

How the data were processed

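The authors deposited raw counts per gene symbol. The submitters' processing notes name STAR 2.5.2a and featureCounts, as well as DESeq2 1.12.4, and builds mm10 and hg19 with no role. The sources used here give neither the annotation release nor the strand setting. Per the file headers, the authors' comparison table holds mean normalized counts (signal), log2 fold changes and their errors, the Wald score and p-values.

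In R 4.3.3, filterByExpr of edgeR 4.0.16 left 19565 genes, which were scaled by TMM and tested with the robust quasi-likelihood test, with Benjamini-Hochberg adjustment over all of them (FDR 0.05). Log2 CPM profiles used a prior count of 2. The fit was tested on counts simulated from its own dispersions. Each gene was drawn independently, so epidermal and Hox differences shared within a library were not simulated and that test does not cover them. Alternatives were DESeq2 size factors, no low-count filter, the Wald test of DESeq2 1.42.0, limma 3.58.1 (voom), a block on replicate number, and libraries left out. Lengths and coordinates came from GENCODE M21. All 165 listed genes were matched, 2 through a RefSeq synonym.

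The 9 genes and the lists were chosen with earlier results of these data known. Of the 70 other pathway genes, the rule named those past the FDR and the most abundant of each role. Hapln2, Ugdh, Lyve1, Cd44 and Adamts9, and the marker genes given singly, were chosen after their values were seen.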

Additional observations from a re-analysis of the deposited data

How the results depend on the processing

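Under DESeq2 size factors, no low-count filter, the Wald test and limma-voom, the 9 log2 fold changes moved by less than their SE, but Acan went from -0.38 to 0.047 with limma-voom, and Vcan, near 0, was 0.0035 with no filter. With single libraries left out, Hapln1 ran from 2.21 to 2.89, Has2 from 0.37 to 0.53, Vcan from -0.094 to 0.066 and Bcan from -0.38 to -0.11. Acan ran from -0.79 to 0.82, the last value without wild-type replicate 1. Without replicate 1 of both genotypes Hapln1 was 2.96, Acan 0.59 and Has3 0.051. With wild-type replicates 2 and 3 left out, Hapln1 was 1.89, Vcan 0.17, Bcan 0.063, Acan -1.49, Has2 0.29 and Has3 -0.15. The count of the 9 genes past the FDR ran from 0 (with replicate 3 of either genotype left out) to 1 over the single left-out libraries. The count of other pathway genes called higher ran from 0 to 1 (Adamts9, without wild-type replicate 1), was 1 in the DESeq2 Wald test and 2 (Adamts9 and Dcn) without replicate 1 of both genotypes. The cause was not tested.

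Some values near 0 changed sign. With wild-type replicates 2 and 3 left out, Has1 was 0.63, Cemip2 0.13, Habp4 -0.15, Fam20b -0.12 and Edil3 -0.038. Over single left-out libraries Cemip2 ran from -0.11 to 0.022, Habp4 from -0.063 to 0.10, Fam20b from -0.014 to 0.12, Edil3 from -0.013 to 0.12 and Xrcc4 from -0.057 to 0.11. Xrcc4 was also -0.0013 with limma-voom and -0.062 without replicate 1 of both genotypes. Tfpi2 was not past the FDR when knockout replicate 3 (2.66) was left out, nor when wild-type replicate 2 (2.60) or 3 (2.65) was. Without wild-type replicates 2 and 3, Tfpi2 (2.21), Stc2 (2.32), Gimap4 (1.74) and Angpt2 (2.13) were not past it.

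With a replicate block Hapln1 was 2.53, 1 of the 9 genes and 0 other pathway genes were called, and 282 genes in all against 129. The labels do not say that the numbers pair embryos. Correlations between libraries were taken on log2 CPM after each gene's own group mean was subtracted, not on whole expression profiles. Same-numbered libraries were at 0.587, 0.31 and 0.034, with knockout replicate 2 closer to wild-type replicate 3 (0.478). All-gene counts were 211 with no filter, 313 in the DESeq2 Wald test, 36 to 388 over single left-out libraries, 459 without replicate 1 of both genotypes and 20 without wild-type replicates 2 and 3. Lengths of the longest transcript gave the same order of levels, with Vcan at 25.6 RPKM in knockout brains. Acan, Hapln2, Hapln4 and Has1 had under 100 counts in each library, which limits their precision. The same limit holds for Hapln1 in wild-type replicates 2 and 3 (45 and 69 counts). It also holds for Hapln3 in knockout replicates 1 and 3 (94 and 87 counts). Dixon's test for an outlying library was not run on groups of 3.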
